A study of Rattus norvegicus with 18 samples.

Results

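The response common to the compounds DDMB, DDEB, CDMB and CDEB was described in rat primary hepatocytes. The study's title calls these compounds p-dialkoxy chlorobenzenes, and the labels give them only as codes. The cells came frozen from male Sprague Dawley rats, were held in culture for 24 h, and then received DMSO or 1 compound at 300 µM for another 24 h, so the compounds can be set side by side at the same dose and time. Each of the 4 compounds was read on 3 one-colour Agilent arrays, which makes 12 of the 18 arrays of the series, and the other 6 are DMSO controls. DDMB, CDMB and CDEB were set over the control group VC_1, and DDEB over VC_2, the control of the other chip lot. A gene counted as a member of the core response when all 12 treated arrays lay on the same side of the mean of their own 3 control arrays. This held for 1312 of 21574 genes, with 902 above the controls (4.18% of the genes) and 410 below (1.9%). Members were ranked by the smallest of their 4 mean changes. All levels are log2 signal relative to the 75th percentile of the array, and a change is the difference between the mean of a compound and the mean of its control. The choice of members uses every array, so their values are a description and carry no test of the list. The study's design text speaks of independent experiments without saying whether the animals differed, and p-values therefore measure the spread between these samples.

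Hepatocytes clear lipophilic chemicals and burn fatty acids, and ligand-activated nuclear receptors set much of the equipment for both. PPARα governs genes of peroxisomal and mitochondrial fatty acid oxidation, CAR and PXR govern drug-metabolising enzymes, AhR governs the Cyp1 family, and retinoic acid receptors govern genes that include the enzymes of retinoic acid clearance. Primary hepatocytes also lose part of their liver-specific expression in culture, so that cultures of one preparation can differ in how far this has gone.

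The promoters of 2 core genes are shown because the letters known to bind a receptor or a stress factor stand in them. Cyp26a1, the enzyme that clears retinoic acid, is the 1 core gene whose promoter holds the retinoic acid repeat, and Hspb1, a small heat shock protein, rose in the mean of the compounds. Sequences are RefSeq's in build GRCr8 and run from 250 bases before to 50 bases after the start of the gene. The Cyp26a1 window is chr1:244883572-244883871 on the plus strand, and capitals mark a direct repeat of a hexamer with 5 bases between the copies, read on the other strand as AGTTCANNNNNAGTTCA. The Hspb1 window is chr12:26432252-26432551 on the minus strand, and capitals mark each GAANNTTC, a core of the heat shock element that reads the same on both strands.
Cyp26a1: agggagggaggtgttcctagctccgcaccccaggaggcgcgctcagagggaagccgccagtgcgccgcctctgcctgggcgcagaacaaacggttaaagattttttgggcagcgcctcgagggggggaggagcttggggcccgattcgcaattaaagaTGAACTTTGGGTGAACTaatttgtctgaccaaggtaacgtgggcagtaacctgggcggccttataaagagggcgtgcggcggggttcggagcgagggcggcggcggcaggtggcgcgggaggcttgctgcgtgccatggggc
Hspb1: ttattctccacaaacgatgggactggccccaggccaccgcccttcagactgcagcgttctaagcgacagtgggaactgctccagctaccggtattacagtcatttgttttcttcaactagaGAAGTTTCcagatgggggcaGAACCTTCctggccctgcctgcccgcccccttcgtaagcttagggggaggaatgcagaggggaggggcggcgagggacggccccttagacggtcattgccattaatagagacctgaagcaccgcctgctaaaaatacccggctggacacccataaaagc
The repeat of Cyp26a1 spans bases -92 to -76 from the gene start, and the motifs of Hspb1 begin at bases -129 and -109. A retinoic acid repeat of this spacing, with 3 letter forms allowed for each hexamer, a motif searched on both strands after Cyp26a1 was seen to rank high, stood in 1 of 460 core rises with a promoter sequence, in 3 of 9030 measured genes (0.0332%) and in 89 of 27457 promoters of the table (0.324%). GAANNTTC stood in 5.43% of core rises, 5.63% of measured genes and 8.34% of all promoters. The PPAR repeat, AGGTCA followed by itself with 1 base between, stood in 0 of 460 core rises and 0 of 183 core falls, against 16 of 27457 promoters (0.0583%). GCGTG, the core of the AhR element, stood in 49.6% of core rises and 47.9% of measured genes, and TGACNNNGC, the NRF2 element, in 16.7% and 14.6%. The same hexamer with 4 bases between stood in none of the core promoters and in 1 promoter of the table. These shares describe letters in a short window.

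Before the genes, the controls need a word. Spot intensity was well above background on 61.0% to 64.3% of spots of an array, and no probe spot was saturated. All 26 hepatocyte identity genes were well above background in all groups. Arrays of VC_1 and VC_2 with the same replicate number deviated together from their group means (r = 0.634, 0.468 and 0.808 across genes for replicates 1, 2 and 3), so the 6 control arrays cannot be taken as 6 separate cultures. Replicate 3 stood apart in both groups, with cell cycle genes 0.46 and 0.43 above the group mean and hepatocyte identity genes 0.38 and 0.40 below it (deviations of -0.38 and -0.40 on the log2 scale). Treated arrays deviated in this way too, namely DDEB replicate 3 (0.63 and -0.21) and DDMB replicate 2 (0.36 and -0.26). Readings without replicate 3 of the controls keep these treated arrays, so they are not free of such deviations. CDMB and CDEB were hybridised on a slide without controls, and DDEB replicate 3 was alone on another, whereas DDMB shared a slide with VC_1 and DDEB replicates 1 and 2 shared one with VC_2. As a percentage of the brightest spike-in, the signal of a dim one was 1.98% to 2.04% in VC_1, 1.78% to 2.02% in DDMB, 1.73% to 1.83% in VC_2, 1.09% to 1.66% in DDEB and 1.21% to 1.32% in CDMB and CDEB.

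Genes that moved on average over the compounds were found by testing the mean of the 4 effects over all genes. Limma, with Benjamini-Hochberg adjustment over all genes, called 310 genes (1.44% of those tested), of which 197 rose (0.913%) and 113 fell (0.524%). At an unadjusted p under 0.05 there were 3779. With quantile normalization 53.5% of the calls were rises, against 63.5% here. Of the 310 genes 235 belonged to the core, which holds 6.08% of all genes. The core rule and this test use the same arrays, so that overlap does not test the core. The number of calls fell to 41 when same-numbered control arrays were treated as 1 culture, to 73 without replicate 3 of both control groups and to 1 with slide as a random block.

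The largest called rise was that of Colq, which encodes the collagen tail that anchors acetylcholinesterase. Its levels were -2.48, -2.52 and -3.15 in VC_1, between -1.72 and -1.53 with DDMB, between -2.32 and -2.08 with CDMB and between -1.92 and -1.71 with CDEB, and they went from -2.65, -2.86 and -3.44 in VC_2 to -1.25, -1.40 and -1.76 with DDEB. No treated array overlapped its controls. The mean effect was 0.99 ± 0.13 (log2 ± SE, n = 3 arrays a group, limma adjusted p = 0.00332), from 0.50 with CDMB to 1.51 with DDEB. Abcg5, a subunit of the sterol exporter, rose by 0.73 ± 0.11 (adjusted p = 0.00471 in limma), with 1.02, 0.88, 0.69 and 0.33 for DDMB, DDEB, CDMB and CDEB. Pcp4l1, a small protein related to a calmodulin regulator, rose by 0.66 ± 0.09, from levels of -1.36 to -1.74 in VC_1 and -1.41 to -1.76 in VC_2 to -0.43 to -0.95 with DDMB, -0.71 to -0.81 with DDEB, -0.87 to -1.02 with CDMB and -1.01 to -1.16 with CDEB. Tmem117, a membrane protein also among the called rises, was dim, being well above background on 1 of 3 VC_1 arrays, on no VC_2 array and on 3, 3, 2 and 2 of 3 arrays of DDMB, DDEB, CDMB and CDEB. It was kept through DDMB and DDEB, where it is high, and was at least 2.29-fold higher with DDEB. Over 27 alternatives its mean effect ran from 0.32 to 0.83.

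Neurofilament genes led the called falls. Nefl, the light chain, had levels of -2.66, -2.38 and -1.85 in VC_1, -4.49, -3.25 and -4.78 with DDMB, -4.36, -4.11 and -4.26 with CDMB, and -3.46, -3.52 and -3.53 with CDEB. In the other lot it had -2.64, -2.21 and -1.66 in VC_2 and -3.85, -3.62 and -2.59 with DDEB, whose replicate 3 overlapped the controls. The mean effect was -1.55 ± 0.26 (limma adjusted p = 0.0104). Nefm, the medium chain, fell by 1.38 on the log2 scale (SE 0.16, limma adjusted p = 0.00192), with changes of -1.75, -1.35, -1.72 and -0.68 for DDMB, DDEB, CDMB and CDEB. It was dim in treated cells, being well above background on 2, 1, 1 and 3 of 3 arrays of these compounds and on all control arrays. Over 27 alternatives its mean effect ran from -1.45 to -0.33. Car11, a carbonic anhydrase relative, was well above background on no array of DDMB, DDEB or CDMB and was at least 2.08-fold, 1.79-fold and 1.76-fold lower there. Its mean effect, called as a fall, went to 0.02 with normexp background correction. Timp2, an inhibitor of matrix metalloproteinases, and Ogn, a small proteoglycan of connective tissue, had mean effects of -0.78 and -0.76 (SE 0.16 and 0.15). Of these genes, Colq, Abcg5, Pcp4l1, Nefl and Nefm were also called when same-numbered control arrays were treated as 1 culture.

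**Figure D1:**
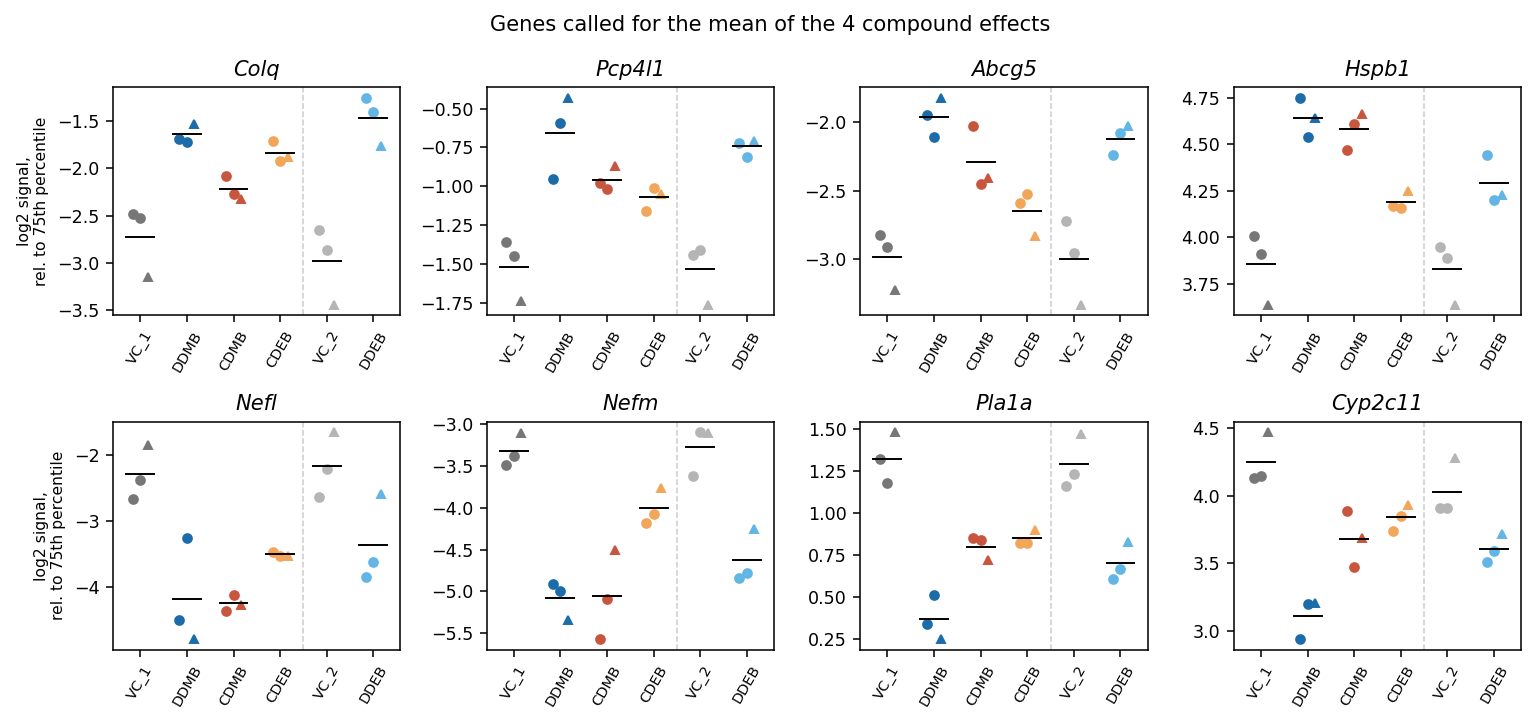
Log2 signal relative to the 75th percentile of the array (vertical axis, a scale of its own in each panel) for 8 genes called for the mean of the 4 effects, by group. Circles are replicates 1 and 2, triangles replicate 3, bars group means, and the dashed line separates the chip lots. Colq, Pcp4l1, Pla1a and Cyp2c11 have no treated array among their controls, while Nefl with DDEB has 1.

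Connective tissue markers were read beside these falls. Of 15 stellate cell and fibroblast markers 10 were measured, and their summed linear signal relative to the 75th percentile was 8.46 to 13.0 in VC_1, 5.98 to 8.45 with DDMB, 5.51 to 7.05 with CDMB and 10.6 to 11.3 with CDEB, against 8.16 to 13.0 in VC_2 and 8.00 to 12.0 with DDEB. The sums lay below the control range with DDMB and CDMB and overlapped it with the other compounds. Most of each sum is Tagln, an actin-binding protein of smooth muscle, whose changes were -0.75, -0.16, -0.74 and 0.13 for DDMB, DDEB, CDMB and CDEB. The median change of the 10 markers was 0.10, -0.02, -0.18 and 0.11. Ogn is itself on that list and changed by -1.20, -0.77, -0.91 and -0.15 with DDMB, DDEB, CDMB and CDEB, and Col3a1, a fibrillar collagen, was a core fall at -0.25, -0.35, -0.55 and -0.10. In a bulk sample fewer cells of a type and less RNA per cell cannot be told apart, and the part of other cells in these falls was not tested.

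No gene was called by limma in each of the 4 compounds (0 genes), while 143 lay at an unadjusted p under 0.05 in all 4 in one direction, 96 of them higher and 47 lower. The calls per compound were 120 with DDMB (0.556% of genes, 0.232% higher and 0.324% lower), 182 with DDEB (0.844%, 0.593% and 0.25%), 9 with CDMB (0.0417%, 0.0324% and 0.00927%) and 24 with CDEB (0.111%, 0.0556% and 0.0556%). Genes called in the same direction numbered 43 in 2 compounds and 5 in 3. Of the latter, Nefm alone has a plain symbol and was called with DDMB, DDEB and CDMB. Core rises were called 25, 66, 4 and 4 times with DDMB, DDEB, CDMB and CDEB, and core falls 31, 28, 2 and 3 times. Since the core was chosen from these comparisons, nothing is read from those counts. With all 6 DMSO arrays pooled as control, 2 genes were called in every compound, among them Pla1a, a phospholipase that acts on phosphatidylserine. Its own lot's controls gave changes of -0.96, -0.59, -0.52 and -0.47 for DDMB, DDEB, CDMB and CDEB, with levels of 1.18 to 1.48 in VC_1, 1.16 to 1.47 in VC_2 and 0.25 to 0.90 over the 12 treated arrays.

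The core itself was mostly made of small changes. The median of the smallest change was 0.112 among rises and 0.132 among falls, on the log2 scale. Only 16 rises and 14 falls had a smallest change of at least 0.5, and 2 rises and 1 fall one of at least 1. Among the rises the largest of the 4 changes was that of DDEB in 373 genes, DDMB in 215, CDMB in 173 and CDEB in 141. In a single comparison, all 3 treated arrays lay above or below their control mean in 24.7% and 16.8% of genes with DDMB, 23.5% and 17.3% with DDEB, 32.7% and 27.9% with CDMB, and 35.6% and 32.4% with CDEB. They lay above or below all 3 control arrays in 8.75% and 5.53% of genes with DDMB, 10.1% and 6.1% with DDEB, 13.5% and 12% with CDMB, and 15.9% and 13.9% with CDEB. All treated arrays lay beyond all control arrays of their own comparison in 172 core rises (0.797% of genes) and 67 core falls (0.311%).

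The first 15 core rises among bright genes began with Il24, a cytokine of the interleukin 10 family, with levels of -4.61, -5.05 and -6.22 in VC_1, -2.99, -4.83 and -3.97 with DDMB, -4.02, -3.78 and -4.51 with CDMB and -3.63, -3.83 and -4.18 with CDEB. With DDEB it went from -4.55, -4.50 and -5.83 in VC_2 to -3.80, -3.85 and -4.40. DDMB replicate 2 lay among the controls, so the groups overlapped there, and the changes were 1.36, 0.95, 1.19 and 1.41 for DDMB, DDEB, CDMB and CDEB. Dapk1, a calcium-dependent kinase linked to cell death, did not overlap in any compound. Its levels were 1.54, 1.58 and 0.99 in VC_1 and 1.22, 1.26 and 0.75 in VC_2, against 1.77 to 2.33 with DDMB, 1.93 to 2.06 with CDMB, 2.02 to 2.16 with CDEB and 1.26 to 2.12 with DDEB. The changes of Dapk1 were nearly equal at 0.62, 0.64, 0.62 and 0.74. The netrin receptor gene Unc5b (0.49, 0.64, 0.54 and 0.55 for DDMB, DDEB, CDMB and CDEB), the GABA and taurine transporter gene Slc6a13 (0.49, 0.77, 0.49 and 0.56) and the scaffold gene Pdzk1 (0.52, 0.50, 0.58 and 0.41) were further members.

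Plin5, which coats lipid droplets and ties them to mitochondria, had changes of 0.63, 0.57, 0.64 and 0.67 for DDMB, DDEB, CDMB and CDEB. Its levels were -2.90, -2.95 and -3.69 in VC_1 and -2.37 to -2.87 with DDMB, -2.52 to -2.56 with CDMB and -2.42 to -2.55 with CDEB, and -2.98, -3.04 and -3.78 in VC_2 and -2.46 to -3 with DDEB, so that only DDEB overlapped its controls. Acot5, a peroxisomal acyl-CoA thioesterase of a family of near-identical copies whose probes may not tell members apart, had 0.61, 0.54, 0.57 and 0.51. Cyp8b1, the sterol 12-hydroxylase of bile acid synthesis, had 0.62, 0.48, 0.53 and 0.68. Por, the electron donor of all microsomal P450 enzymes, had 0.43, 0.52, 0.56 and 0.45, and Pank1, which starts coenzyme A synthesis, had 0.51, 0.57, 0.42 and 0.55. Prr15 and Vom2r46, the latter of a large receptor family with similar sequences, were also among the 15, with Colq and Pcp4l1. Genes without a plain symbol were left out of this ranking and of that of the falls. The last of the 15 rises had a smallest change of 0.41 (Pdzk1) and the next gene one of 0.40 (Fndc9).

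Among the first 15 core falls, Car3, a carbonic anhydrase abundant in male rat liver, went from 2.23, 2.42 and 3.14 in VC_1 to 1.37, 2.23 and 1.15 with DDMB, 1.58, 1.60 and 1.56 with CDMB and 1.89, 1.80 and 2.04 with CDEB. In the other lot it went from 2.11, 2.31 and 3.16 to 1.61, 1.77 and 2.38, so DDEB overlapped its controls. The changes were -1.01, -0.60, -1.02 and -0.69 for DDMB, DDEB, CDMB and CDEB. Cyp2c11, the main male-specific steroid hydroxylase of rat liver, had levels of 4.13, 4.15 and 4.47 in VC_1 and 3.91, 3.91 and 4.28 in VC_2, and of 2.94 to 3.21 with DDMB, 3.51 to 3.72 with DDEB, 3.47 to 3.89 with CDMB and 3.74 to 3.93 with CDEB. Its groups did not overlap in any compound, and the changes were -1.14, -0.42, -0.57 and -0.41. Sdr16c5, a retinol dehydrogenase, had -0.83, -0.85, -0.99 and -0.63, and Slc5a3, the myo-inositol transporter, -0.38, -0.69, -0.35 and -0.56. Mybpc3 of the heart muscle filament had -1.70, -0.88, -1.46 and -0.44, and Pln, the regulator of the sarcoplasmic calcium pump, -0.85, -0.83, -0.51 and -0.42. Cfap77 (-0.56, -0.43, -0.53 and -0.49), the sialyltransferase gene St8sia3, Tnfaip2, the protease gene Ctse and the kinase inhibitor gene Pkia were also on the list, with Nefl, Pla1a and Timp2. The last had a smallest change of 0.35 (Slc5a3) and the next 0.33 (Pea15).

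**Figure D2:**
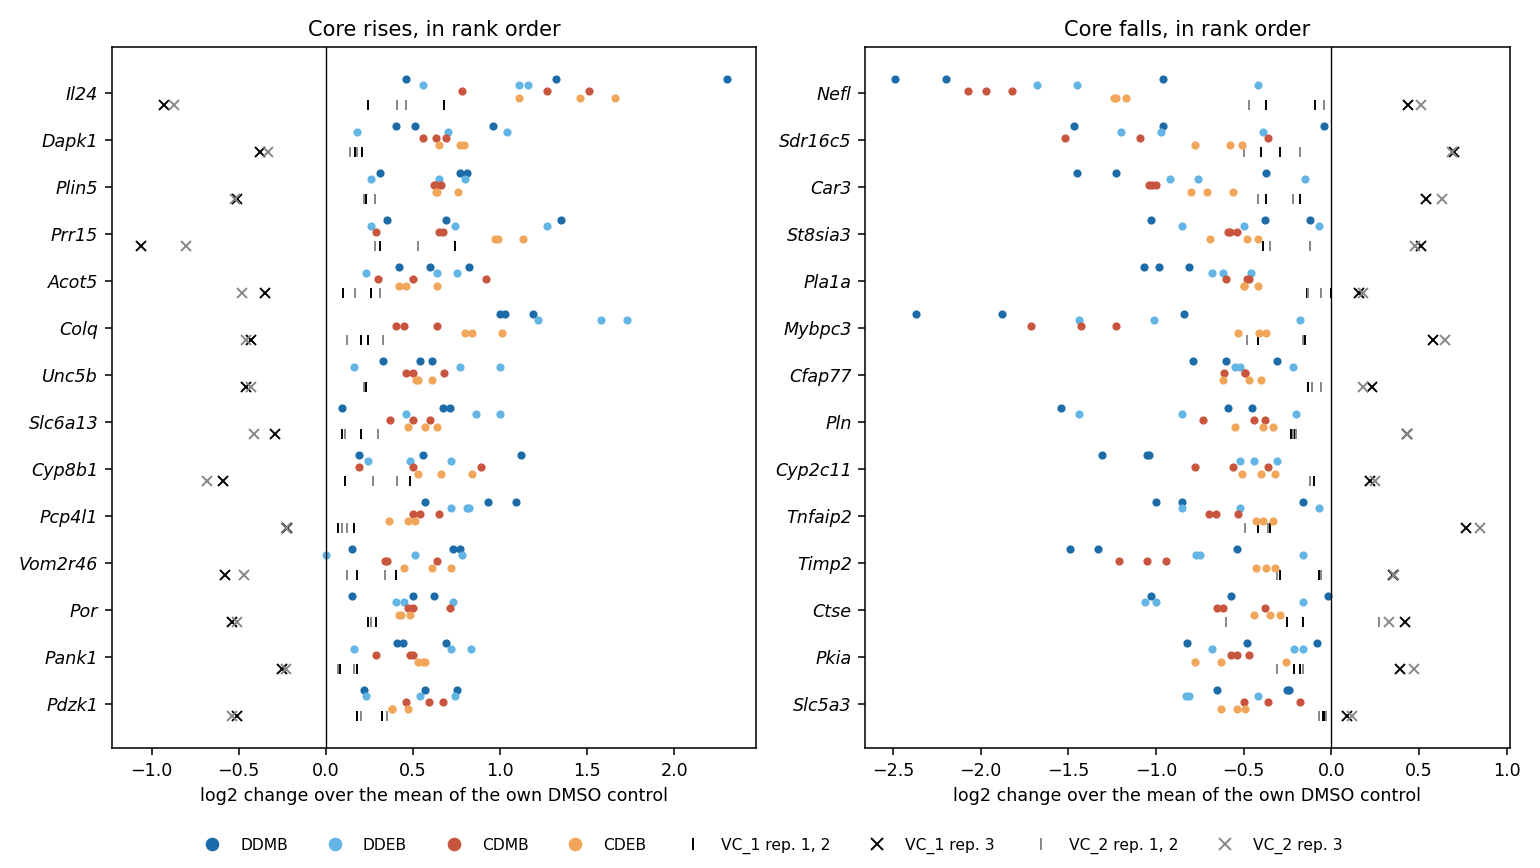
Log2 change of each array over the mean of its own DMSO control (horizontal axis) for genes among the 15 first-ranked core rises and the 15 first-ranked core falls. Coloured points are treated arrays, bars are control replicates 1 and 2, and crosses are control replicate 3, which lies farthest from the treated arrays for every gene drawn in both VC_1 and VC_2.

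Some core genes were too dim in a group for a measured change. Cyp26a1 lay well above background on no control array and on 3, 2, 2 and 2 of 3 arrays of DDMB, DDEB, CDMB and CDEB, and was kept through DDMB. Its level was at least 2.96-fold, 3.04-fold, 2.04-fold and 2.28-fold higher with these compounds. For this, control signals below the lowest signal well above background were raised to it. Treated arrays were taken as measured, also those not well above background, and the bounds hold for the main processing only. The mean effect of Cyp26a1 was not called (limma adjusted p = 0.0528). Prdm1, a transcriptional repressor of lymphocyte and epithelial differentiation, was well above background on 2 of 3 VC_1 arrays and on none of VC_2, against all arrays of every compound. It changed by 1.81 with DDMB, 1.85 with CDMB and 1.75 with CDEB, and was at least 2.45-fold higher with DDEB. Its promoter also holds GAANNTTC. On the falling side Fgf13, an intracellular relative of the fibroblast growth factors, changed by -1.27 with DDMB and -0.72 with DDEB and was at least 3.27-fold lower with CDMB and 2.45-fold lower with CDEB. Fam124a changed by -0.92 with DDMB and -0.81 with CDEB and was at least 2.70-fold lower with DDEB and 2.98-fold lower with CDMB. Over 27 alternatives the mean effects ran from 0.54 to 2.29 for Cyp26a1 and from 0.66 to 2.08 for Prdm1. Those of the falls ran from -1.61 to -0.13 for Fgf13 and from -1.61 to -0.26 for Fam124a.

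Of 24 genes of retinoid metabolism and signalling, a list drawn up after Cyp26a1 was seen, 15 were measured. The median changes of the 14 other than Cyp26a1 were -0.03, -0.02, -0.07 and 0.01 for DDMB, DDEB, CDMB and CDEB. Tgm2, a transglutaminase, was the 1 member called for the mean effect (0.33 ± 0.07, limma adjusted p = 0.0438), with 0.23, 0.60, 0.08 and 0.42. Rarb, the receptor gene that retinoic acid is best known to raise, had 0.03, -0.08, 0.43 and 0.22, and Dhrs3, a retinal reductase, had 0.10, 0.13, 0.78 and 0.68. Aldh1a1, which makes retinoic acid, had -0.65, -0.29, -0.72 and -0.27. Sdr16c5, one of the first-ranked falls, is also on this list.

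The rank order rested heavily on 1 control replicate. In all 15 first-ranked rises replicate 3 was the lowest of the VC_1 arrays and of the VC_2 arrays, and in all 15 first-ranked falls it was the highest. Over the whole core it was the lowest VC_1 array in 65% of rises and the highest in 58.8% of falls, against 47.1% and 37.7% of all genes. Without replicate 3 of both control groups the core held 817 rises and 564 falls, of which 498 and 236 were among the original members. Only 6 of the 15 first-ranked rises (Dapk1, Plin5, Colq, Pcp4l1 and Pank1 among them) and 5 of the 15 first-ranked falls (Nefl, Pla1a, Cfap77, Cyp2c11 and Slc5a3) then met the rule. The weakest change of Prr15 went from 0.54 to 0.01, that of Por from 0.43 to 0.16 and that of Il24 from 0.95 to 0.51, while Cyp26a1 and Prdm1 met the rule. Cpne9, a calcium-binding copine (1.05, 0.81, 0.45 and 0.47), and Cpt1a, the gate of mitochondrial fatty acid import (0.74, 0.73, 0.46 and 0.38), were then among the first 4 bright rises.

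**Figure D3:**
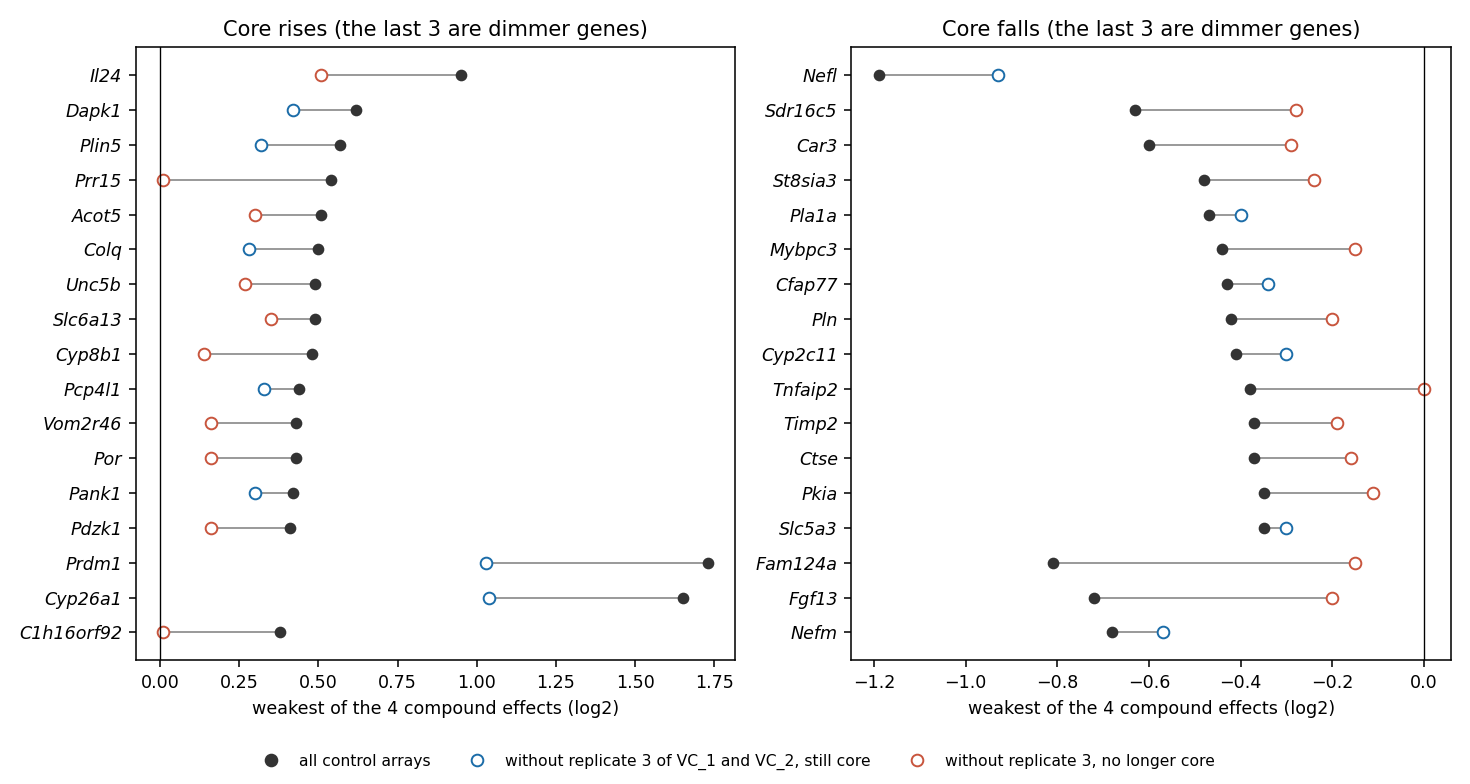
Weakest of the 4 compound effects (horizontal axis, log2) for the named core genes with all control arrays (filled) and without replicate 3 of VC_1 and VC_2 (open). Blue rings still meet the core rule and red rings do not. Prr15 goes from 0.54 to 0.01, whereas Nefl goes from -1.19 to -0.93.

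A stricter reading kept only genes whose treated arrays lay beyond every control array. Among bright genes with a plain symbol, the first of these rises by rank were Dapk1, Colq, Pcp4l1, Tle1, Hspb1, Tex36 and Aco1, and the first falls were Pla1a, Cfap77, Cyp2c11, Slc5a3 and Npw, an order looked up after their values were seen. Hspb1 had levels of 4.01, 3.91 and 3.64 in VC_1 and 3.95, 3.89 and 3.64 in VC_2, against 4.54 to 4.75 with DDMB, 4.20 to 4.44 with DDEB, 4.47 to 4.66 with CDMB and 4.16 to 4.25 with CDEB. It was called with DDMB (limma adjusted p = 0.00473) and CDMB (0.0299), and the changes were 0.78, 0.46, 0.72 and 0.34. Hspb1 was the 1 gene called for the mean effect among 19 measured heat shock genes, whose list median was 0.06. At an unadjusted p under 0.05 in limma, 4 of these 19 rose and 2 fell, against 3779 of all 21574 genes in either direction. Tle1, a corepressor, had 0.37, 0.52, 0.52 and 0.45, and Aco1, the cytosolic aconitase that doubles as an iron sensor, had 0.33, 0.56, 0.36 and 0.35. Npw, a neuropeptide precursor, had -0.89, -0.32, -0.57 and -0.65.

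Gene lists placed fatty acid oxidation highest. Of 20 measured PPARα targets of omega-hydroxylation and peroxisomal oxidation, 7 rose and none fell in the mean of the 4 effects (15 and 0 before adjustment, at a limma p under 0.05). Over all 21574 genes 0.913% were called higher and 0.524% lower, and 3779 genes lay at that unadjusted p in either direction. The list median was 0.31 against 0.01 over all genes. The median was 0.21 with DDMB, 0.45 with DDEB, 0.19 with CDMB and 0.29 with CDEB. 14 of the 20 had positive changes in all 4 compounds, against 19.4% of all genes. The 7 included Cyp4a1 and Cyp4a3, which hydroxylate fatty acids at their end, the auxiliary enzymes Decr2 and Eci2, the importer Abcd3 and the thioesterase Acot3. Cyp4a and Acot genes have close copies, and their probes may share signal.

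Values within that list were uneven across the compounds. Cyp4a1 changed by 0.16, 1.02, 0.14 and 0.79 and Cyp4a3 by 0.23, 0.88, 0.23 and 0.62 for DDMB, DDEB, CDMB and CDEB. Cyp4a3 levels were 4.14, 4.17 and 3.90 in VC_1, 4.19, 4.22 and 4.49 with DDMB, 4.38, 4.21 and 4.31 with CDMB, and 4.72, 4.66 and 4.70 with CDEB, and went from 3.96, 4.00 and 3.77 in VC_2 to 4.80, 4.92 and 4.65 with DDEB. No difference between compounds was called for either Cyp4a gene, the lowest limma adjusted p being 0.101 for Cyp4a1 (CDMB against CDEB, -0.64) and 0.0957 for Cyp4a3 (DDEB against CDMB, 0.65). Ehhadh, the bifunctional peroxisomal enzyme, differed between CDMB and CDEB by -0.61 (95% interval -0.83 to -0.39, limma adjusted p = 0.0312 over all genes and 6 pairs). That call was lost under 16 of 28 alternatives, and over all 28 the adjusted p ran from 0.00327 to 0.229.

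Mitochondrial oxidation followed, with 3 of 23 measured members called up, none down (18 and 0 before adjustment, at a limma p under 0.05), with a list median of 0.23. The called genes were Crat, the carnitine acetyltransferase (0.57, 0.73, 0.22 and 0.29), Cpt2, the inner carnitine palmitoyltransferase (0.26, 0.44, 0.20 and 0.18), and Etfa, an electron acceptor of the acyl-CoA dehydrogenases (0.32, 0.13, 0.30 and 0.15). Crat had levels of 4.40 to 4.46 in VC_1 and 4.42 to 4.47 in VC_2, and lay above them on all 12 treated arrays, from 4.60 with CDMB to 5.20 with DDEB. In each of the mitochondrial and peroxisomal lists 8 members were core rises, and 8 were without replicate 3 of the controls, while the called rises went from 3 to 1 and from 7 to 2. Over all 21574 genes core rises went from 902 (4.18%) to 817 and called rises from 197 (0.913%) to 37. The list medians were then 0.19 for mitochondrial and 0.22 for peroxisomal oxidation.

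**Figure D4:**
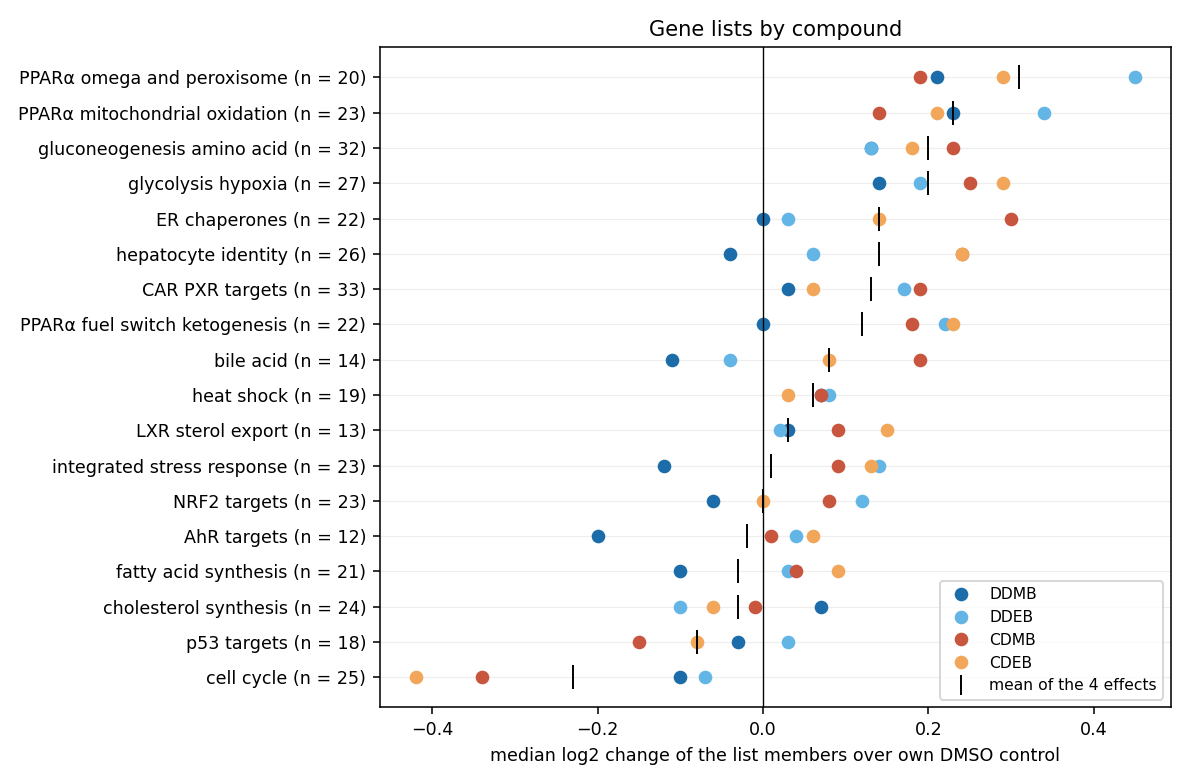
Median log2 change over the own DMSO control (horizontal axis) of the measured members of each gene list, for the 4 compounds (points) and for the mean of the 4 effects (bars). The PPARα lists lie to the right of 0 for every compound except the fuel switch list with DDMB, which is at 0.00.

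Lists of glucose and amino acid metabolism came next but leaned on the same control replicate. Of 32 measured genes of gluconeogenesis and amino acid breakdown, 5 rose and none fell (12 and 1 at an unadjusted p under 0.05 in limma), with a list median of 0.20 that was 0.00 without replicate 3 of the controls, when limma called no rise and 1 fall. With all control arrays 0.913% of all genes were called higher and 0.524% lower. The called genes were Tat and Hpd of tyrosine breakdown (0.68, 0.27, 0.29 and 0.14 for Tat), the urea cycle enzyme Ass1 (0.65, 0.26, 0.24 and 0.08), the liver glutaminase Gls2 (0.39, 0.34, 0.06 and 0.07) and Bckdhb of branched-chain amino acid breakdown (0.37, 0.21, 0.17 and 0.17). Glycolysis and hypoxia genes had a median of 0.20 (0.06 without that replicate) and 1 called rise of 27, Pfkl, the liver phosphofructokinase, at 0.23, 0.49, 0.59 and 0.66. Cell cycle genes had a median of -0.23, which was -0.03 without the replicate, and only Aurka, a mitotic kinase, was called, as a rise of 0.31.

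Receptor targets outside the PPARα oxidation lists gave few common calls. The PPARα list of fuel switch and ketogenesis (22 genes measured) held 1 called rise and 0 called falls for the mean effect. At an unadjusted p under 0.05 in limma it held 6 rises and 0 falls. Its median was 0.12, with 0.00, 0.22, 0.18 and 0.23 for DDMB, DDEB, CDMB and CDEB. Without replicate 3 of the controls these values were 0.04 and -0.04, 0.13, 0.09 and 0.18, and 0 members were called. Of 33 measured CAR and PXR targets, Cyp3a23-3a1, the main inducible rat Cyp3a enzyme, rose (0.53, 0.76, 0.20 and 0.23, mean 0.43 ± 0.07) and Cyp2c11 fell, and the list median was 0.13, or 0.00 without replicate 3. Of 12 AhR targets, only Aldh3a1, an aldehyde dehydrogenase, was called, as a fall of 0.42 that came mostly from DDMB (-0.94, -0.20, -0.42 and -0.14), while Cyp1a1 had 0.74, 0.67, 1.09 and 1.03 without being called (limma adjusted p = 0.301). Without replicate 3 of the controls the changes of Cyp1a1 were 0.07, 0.02, 0.42 and 0.37 for DDMB, DDEB, CDMB and CDEB. Abcg5 and the desaturase gene Scd (0.17, 0.54, 0.21 and 0.56) were the called rises of 13 LXR targets. Of 23 NRF2 targets, 23 genes of the integrated stress response, 18 p53 targets and 22 chaperones of the endoplasmic reticulum, none was called in the mean of the 4 effects, and their medians were 0.00, 0.01, -0.08 and 0.14. At an unadjusted p under 0.05 in limma these lists held 2, 2, 1 and 3 members above the controls and 2, 1, 4 and 1 below. Of all 21574 genes 3779 lay at that threshold, so these counts show nothing particular to the lists. None of the 26 hepatocyte identity genes belonged to the core or was called in limma, and 1 lay at an unadjusted p under 0.05.

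The compounds were then compared in all 6 pairs, with p-values adjusted over genes and pairs together. Limma called 7 differences between DDMB and DDEB (0.0324% of genes), 79 between DDMB and CDMB (0.366%), 137 between DDMB and CDEB (0.635%), 4 between DDEB and CDMB (0.0185%), 5 between DDEB and CDEB (0.0232%) and 13 between CDMB and CDEB (0.0603%). The median SE of a difference was 0.186 where DDEB was a partner, since its effect has another control, and 0.132 in the other pairs. This fit takes the arrays of VC_1 and VC_2 as separate cultures. With same-numbered DMSO arrays as 1 culture, limma called 35 differences of DDEB with DDMB, 29 with CDMB and 34 with CDEB. A single test over the 4 effects called 191 genes (0.885%). DDEB differed from the rest by lot and control group, and CDMB and CDEB from DDMB by slide, so compound and slide cannot be told apart in those pairs.

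The 30 first-ranked core genes were chosen for changes that all 4 compounds share, which favours equal effects, so their differences are given as a description. Of their 180 pair differences, 165 had a 95% interval that held 0, with a median width of 1.31 on the log2 scale, so the data leave room for sizeable differences. Mybpc3 had the largest, of -1.26 between DDMB and CDEB (95% interval -2.13 to -0.40). Colq differed by 1.02 between DDEB and CDMB (0.40 to 1.63), and Cyp2c11 by -0.73 between DDMB and CDEB (-1.02 to -0.44).

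Outside the core, several called differences lay in pairs with DDMB. Cyp4b1, a P450 of fatty acids and furans, had levels of -4.50, -3.95 and -3.92 in VC_1, -2.79, -1.43 and -1.31 with DDMB, -4.06, -4.20 and -3.93 with CDMB, and -4.03, -4.13 and -4.08 with CDEB, and went from -4.80, -3.82 and -3.83 in VC_2 to -3.34, -2.99 and -2.55 with DDEB. DDMB exceeded CDEB by 2.24 (95% interval 1.48 to 2.99, limma adjusted p = 0.0256) and CDMB by 2.22. Pck1, which commits carbon to glucose synthesis, differed between DDMB and CDMB by 1.19 (0.77 to 1.62). Abcc2, the canalicular exporter of conjugates, changed by 0.47, 0.26, -0.19 and -0.32 for DDMB, DDEB, CDMB and CDEB, so that DDMB and CDEB differed by 0.79 (0.58 to 1.01, limma adjusted p = 0.00824). Masp1, a protease of the complement lectin pathway, was lower with DDMB than with CDMB by a difference of -0.91 (-1.24 to -0.57), and so was Col5a3, a collagen chain, at -0.88 (-1.19 to -0.57).

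Other pairs had few calls in the main fit. With p adjusted within each pair alone, 0 differences were called between DDMB and DDEB, DDEB and CDMB, or CDMB and CDEB, and 1 between DDEB and CDEB (1246, 1256, 1016 and 1425 at an unadjusted p under 0.05 in limma), so the calls in these pairs rest on the joint adjustment. Eif4ebp3, a brake on translation, changed by 0.49 with DDMB, 0.46 with CDMB, 0.08 with CDEB and -0.19 with DDEB, and DDEB differed from DDMB and CDMB by 0.68 (0.44 to 0.92) and 0.66 in size. Sat2, of the diamine acetyltransferase family, had levels of 0.78 to 0.86 in VC_1, 0.66 to 0.69 with CDMB and 0.34 to 0.41 with CDEB, and of 0.62 to 0.65 in VC_2 and 0.66 to 0.76 with DDEB. CDEB lay below CDMB by 0.30 (0.19 to 0.41) and below DDEB by 0.52 (0.36 to 0.67, limma adjusted p = 0.0139) on the log2 scale. Loxl2, a collagen cross-linking oxidase, was lower with CDMB than with CDEB (-0.78, -1.05 to -0.51), and the imprinted gene Nnat lower with DDMB than with DDEB (-0.52, -0.71 to -0.34).

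Opposite directions were described by the arrays, with all 3 arrays of one compound above their control mean and all 3 of another below theirs. This held in at least 1 pair for 4507 genes, from 577 between CDMB and CDEB (2.67%) to 2147 between DDMB and CDEB (9.95% of genes), of which 8 and 96 had a called difference. The shares were 4.73% for DDMB and DDEB, 6.23% for DDMB and CDMB, 5.54% for DDEB and CDMB and 7.32% for DDEB and CDEB. Cd209f, a C-type lectin, had levels of 0.80, 0.87 and 0.37 in VC_1, 0.18, -0.65 and -0.19 with DDMB, 0.50, 1.02 and 0.85 with CDMB and 1.48, 1.39 and 1.42 with CDEB. DDMB lay below all controls and CDEB above all controls, with changes of -0.90 and 0.75 and a difference of -1.65 (95% interval -2.15 to -1.16, limma adjusted p = 0.0144). In the other lot Cd209f changed by -0.62 with DDEB. Myl2, a muscle myosin light chain, changed by -0.96 with DDMB and 0.35 with CDEB (difference -1.32, -1.83 to -0.80, adjusted p = 0.0466 in limma).

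DDMB and DDEB moved against CDMB and CDEB in 148 genes, against 9 genes with DDMB and CDMB opposed to DDEB and CDEB. Pklr, the liver pyruvate kinase, ranked first, with changes of -1.39, -1.32, 0.72 and 0.46 for DDMB, DDEB, CDMB and CDEB. Its control arrays were spread widely and overlapped the treated ones, with 2.38, 1.90 and 0.43 in VC_1 and 2.51, 2.11 and 0.69 in VC_2, against -0.52 to 1.30 with DDMB, -0.34 to 1.11 with DDEB, 2.14 to 2.47 with CDMB and 1.85 to 2.13 with CDEB. Abcc2 and Masp1 also split this way, with called differences of 0.66 and -0.91 between DDMB and CDMB and of 0.79 and -0.98 between DDMB and CDEB, and for Abcc2 no compound overlapped its controls. The flavin monooxygenase gene Fmo1 had the same arrangement (-0.78, -0.35, 0.61 and 0.39). Slc2a5, the fructose transporter gene, had means of the same signs (-0.86, -0.86, 1.11 and 0.92), but 1 DDMB array lay above the VC_1 mean. Without replicate 3 of both control groups the changes of Pklr were -1.96, -1.86, 0.15 and -0.11, so that of CDEB turned negative, and those of Fmo1 were -1.10, -0.72, 0.29 and 0.07. The differences of Pklr and Fmo1 between DDMB and CDMB were not called (limma adjusted p = 0.188 and 0.133), nor was that of Slc2a5 between DDEB and CDMB (0.561). The split between these pairs of compounds is also a split by slide, as CDMB and CDEB share a slide that holds no other array. Traf1, an adaptor of tumour necrosis factor receptors, had a mean above its control with DDEB alone (1.02, against -0.55, -0.77 and -1.10 for DDMB, CDMB and CDEB), again with no called difference.

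**Figure D5:**
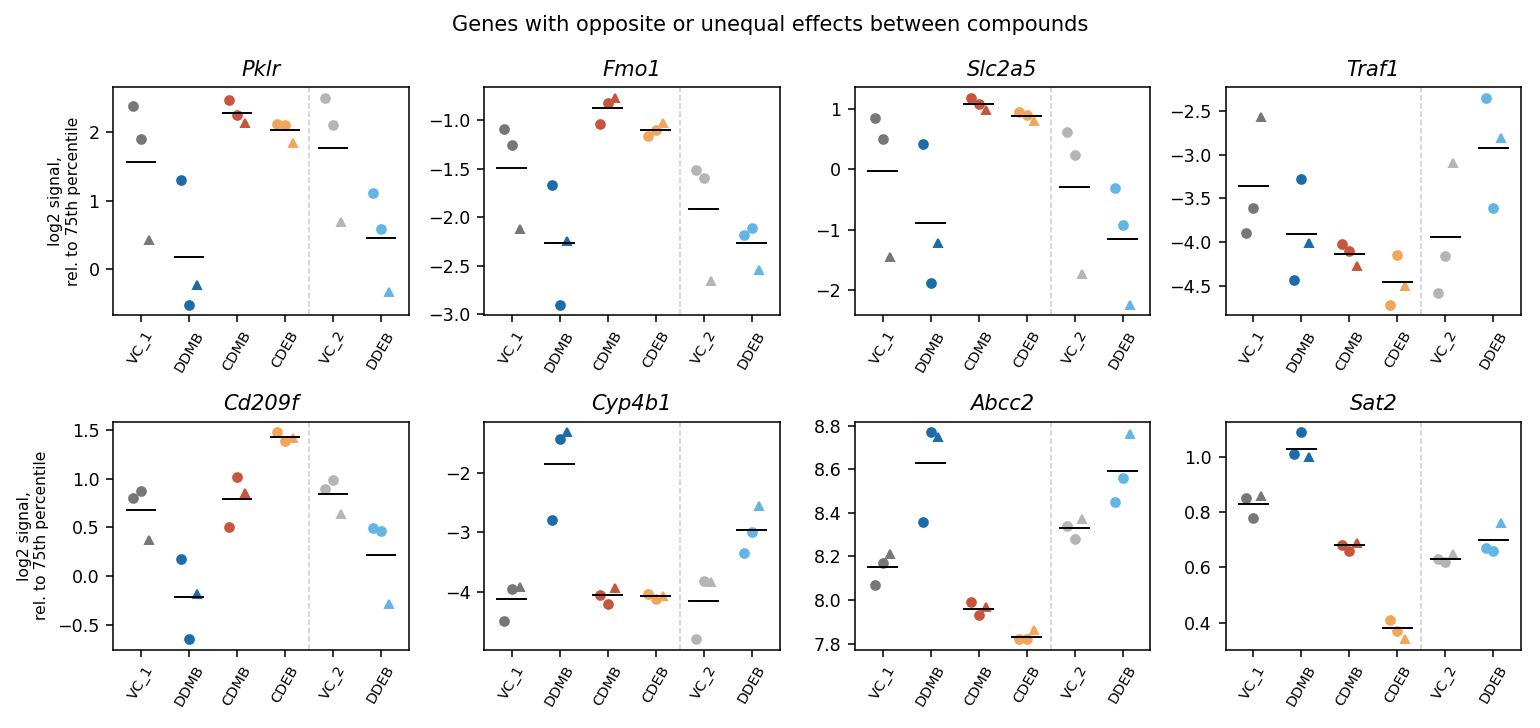
Log2 signal relative to the 75th percentile of the array (vertical axis, a scale of its own in each panel) by group for genes with opposite or unequal effects. Circles are replicates 1 and 2, triangles replicate 3, bars group means, and the dashed line separates the chip lots. Pklr, Fmo1 and Slc2a5 have control replicate 3 low in both lots, while Cd209f lies below the controls with DDMB and above them with CDEB.

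DDEB was last read on genes chosen without its arrays. The 50 first-ranked rises over DDMB, CDMB and CDEB had the same sign with DDEB in 42 cases, with a median change of 0.43, and the 50 first-ranked falls in 37, with a median of -0.31. Over all genes 53% of the DDEB changes were positive and the median was 0.014. The arrays of VC_2 and DDEB did not overlap in the same direction for 8 and 5, against 10.1% and 6.1% of all genes. All 3 DDEB arrays lay on the chosen side of the VC_2 mean for 16 and 13, against 23.5% and 17.3% of all genes. Limma called 0 of the 50 rises and 2 of the 50 falls with DDEB in the chosen direction. Chosen the other way round, on DDEB, the first 50 rises were positive in 27, 31 and 25 cases and the first 50 falls negative in 27, 27 and 33 cases with DDMB, CDMB and CDEB. Over all genes 53.5%, 53.2% and 51.6% of the changes with these compounds were positive, and 46.5%, 46.8% and 48.4% negative. Most of the counts thus lay near the share of all genes. Because same-numbered VC_1 and VC_2 arrays deviate together, these readings are not independent of the choice.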

How the data were processed

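Hepatocytes with DMSO or with 1 of the 4 compounds were read on 18 one-colour arrays, 3 in each of 6 groups, grouped by their titles. Spot intensities were extracted by the authors with Agilent Feature Extraction 10.7.1.1, per the file headers, which subtracts background and corrects trends within an array. The main values, computed from these deposited files, are log2 of the processed intensity minus the array's 75th percentile over probes. The 2 tables of normalized signal deposited by the authors, one for each control, served as an alternative. The deposited values agree, within 1% for the probes above 1, with the processed signal times 1 constant for each array, so they are linear and not centred by gene. Their column medians were 0.045 to 0.075. The number of arrays, not read depth, limits the precision.

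A probe was kept if 1 or more groups had it well above background on each of their 3 arrays, and the brightest probe stood for a gene, which gave 25306 probes of 21574 genes, 10781 of them with a plain symbol. The files pair probes with accessions and old names, and 21109 of 45598 probes were named through RefSeq. Group means were fitted over all 18 arrays with limma 3.58.1 in R 4.3.3 (12 residual degrees of freedom). P-values were adjusted after Benjamini and Hochberg over all genes, and for pairs of compounds over genes and 6 pairs, with 0.05 as threshold. The fit was tested on simulated data with independent errors. These held no slide effects and no shared deviations of the control arrays, so that test does not cover either. Named genes are the 15 first-ranked bright core rises and falls (well above background on 2 of 3 arrays of every group), up to 3 dimmer ones each way, the first opposites and called differences of each pair, the 4 leading members of each list and the 5 largest called mean rises and falls. List members aside, this rule took only genes with a plain symbol. Other genes were chosen after their values were seen. The members, the lists and the tests were chosen with earlier results of these data known.

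Alternatives covered background correction, normalization, filters, probe choice, the control group, slide, the replicate number as a block, single arrays and the deposited tables. Normexp used the median spot signal in place of the mean. Over all groups 18 of 45 correlations between same-numbered arrays exceeded 0.1 (range -0.421 to 0.808), so the numbers do not pair the samples in every group. Within the control groups all did, and so did those of VC_1 with DDEB (0.476, 0.118 and 0.526). For VC_2 with DDEB, the comparison made for DDEB, the correlations were 0.431, 0.096 and 0.49. Those of VC_1 with DDMB were 0.557, -0.421 and 0.092. A few genes that meet the naming rule are not reported here.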

Additional observations from a re-analysis of the deposited data

Results flagged for a closer look

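Cd209f, a C-type lectin gene, stood out because its effect differed in direction between compounds over the same control. DDMB minus CDEB was -1.65 on the log2 scale (limma adjusted p = 0.0144 over all genes and 6 pairs), with all 3 DDMB arrays below and all 3 CDEB arrays above the 3 VC_1 arrays. The DDMB arrays shared a slide with VC_1, while those of CDEB lay on a slide without controls. This pair therefore differs by slide as well as by compound. Over 28 alternatives the difference ran from -1.85 to -1.44 and the limma adjusted p from 0.00518 to 0.753, and 6 of them lost the call. With slide as a random block, limma called 0 differences between DDMB and CDEB. Groups of 3 arrays were not tested for single deviating samples.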

How the results depend on the processing

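The core held 902 rises and 410 falls, and 1766 rises without a filter on dim probes, 172 and 67 when treated arrays had to lie beyond every control array. With normexp background correction the calls with DDMB, DDEB, CDMB and CDEB were 65, 72, 2 and 8, those for the mean effect 130, those of unequal effects 108, and the Car11 mean effect turned to 0.02. Quantile normalization gave 329 calls with DDEB. No filter gave 52, 0 and 6 calls with DDMB, CDMB and CDEB, 89 for the mean effect, 81 pair differences and 52 genes of unequal effects. Probes well above background on all 18 arrays gave 21 with CDMB, 39 with CDEB and 473 for the mean effect. Pooling the 6 DMSO arrays gave 408, 534, 237 and 360 for the 4 compounds, 657 for the mean effect, 2 in all 4, 4264 pair differences and 2346 genes of unequal effects. The replicate numbers do not pair the samples in every group. As a block they gave 421 with DDEB, 16 with CDMB, 38 with CDEB, 683 for the mean effect, 425 pair differences and 325 genes of unequal effects. Slide as a random block gave 193 with DDMB, 0 with CDMB and CDEB, 1 for the mean effect, 0 pair differences and 0 genes of unequal effects, and as a fixed block 254 with DDMB and 353 with DDEB. Alternatives chosen after seeing the data were same-numbered DMSO arrays as 1 culture (112 with DDEB, 2 with CDMB, 14 with CDEB, 41 for the mean effect) and the omission of replicate 3 of both DMSO groups (89, 0, 9 and 73, with 490 pair differences and 348 genes of unequal effects). Fitting only the arrays compared gave 0 calls for each compound and 15 pair differences, adjustment within each pair 853, and the deposited tables gave 1 with CDMB, 8 with CDEB and 0 with DDEB. The causes were not tested. Leaving out single arrays gave 759 to 1408 core rises, 335 to 866 core falls, 4097 to 7535 opposite genes, 61 to 88 held-out genes of the same sign against 79, 39 to 254 calls with DDMB, 48 to 353 with DDEB, 0 to 44 with CDMB, 0 to 96 with CDEB, 60 (without VC_1 replicate 3) to 1083 (without DDEB replicate 3) for the mean effect, 33 to 781 pair differences and 29 to 492 genes of unequal effects. Under each such omission 492 core genes met the rule and 43 genes were called for the mean effect. Leaving out a treated array cannot remove a gene from the core, so only the omissions of control arrays could do so. Counted over combinations of a named gene and an alternative, 959 mean effects kept their side of the threshold. Among them are genes never called, such as Prr15. The call was lost in 108 combinations and gained in 43, and 1 effect reversed. For the named pair differences, 712 combinations kept their side, 172 lost the call and 7 gained it. Called pair differences were lost in 1 of 28 alternatives for Abcc2 and in up to 18 of 28 for Nnat.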
